A study of Mus musculus with 12 samples.

Results

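Genes of retinoid (vitamin A) metabolism were followed through mouse kidney cortex with and without the glucocorticoid receptor in the tubule, in health and 24 h after muscle injury. The 9 genes were Rdh10, Rdh16f2, Aldh1a1, Aldh1a2, Aldh1a3, Aldh1a7, Rbp4, Ttr and Rarb, out of 19938 genes with a named probe set. They were chosen by name from their roles and with earlier results of these arrays known, so their counts and tests describe them and are not independent evidence. For each gene the rule took the probe set (the group of probes that gives 1 value) with 1 gene symbol and the highest mean over 12 arrays. Each of the 9 genes had exactly 1 such probe set, so that step made no choice.

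RNA of renal cortex was measured on Affymetrix mouse gene arrays, with 3 arrays in each of 4 groups. GR-deficient AKI mice carried nr3c1 flox/flox with Pax8-Cre and were sampled 24 h after glycerol had been given into muscle. Control AKI mice carried nr3c1 flox/flox without Pax8-Cre and were sampled at the same time. GR-deficient healthy and control healthy mice had these same genotypes and formed a separate cohort with no injection. Both genotypes therefore carry the floxed alleles, and a genotype difference includes any effect of Pax8-Cre itself. Pax8-Cre is active in tubular epithelium, whereas renal cortex also holds vessels, glomeruli and interstitial cells that keep the receptor. Nr3c1 encodes the glucocorticoid receptor (GR), and glycerol in muscle causes muscle breakdown with acute kidney injury (AKI). Since injured and healthy mice came from 2 cohorts, an AKI difference also holds whatever else set the cohorts apart. No label states that numbered replicates are different animals, and p-values therefore cover the spread of these arrays alone, which may be technical. The labels used here give neither age nor strain.

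As background, retinol travels in plasma bound to retinol binding protein (Rbp4), which is itself held by transthyretin (Ttr), and the filtered part is recovered by proximal tubule cells through megalin (Lrp2) and cubilin (Cubn). Inside cells, retinol dehydrogenases such as Rdh10 convert retinol to retinal, and reductases such as Dhrs3 convert it back. The enzymes Aldh1a1, Aldh1a2 and Aldh1a3 oxidise retinal irreversibly to retinoic acid. Retinoic acid acts through nuclear receptors such as the one encoded by Rarb, whose own gene is a classical target, and Cyp26 enzymes break it down.

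All values are log2 expression values and all differences are on the log2 scale, AKI minus healthy or GR-deficient minus control, with the standard error (SE) of a limma fit over all 19938 genes. A gene passed when its p-value, with Benjamini-Hochberg adjustment over the whole table, was below 0.05. The genotype was visible in every array: Nr3c1 averaged 7.98 ± 0.116 in GR-deficient AKI and 8.86 ± 0.0371 in control AKI, and 8.17 ± 0.0365 in GR-deficient healthy and 9.55 ± 0.0915 in control healthy (SD, n = 3 each). Array medians lay between 7.001 and 7.092. Control AKI replicate 1 and GR-deficient healthy replicate 1 stood apart from their groups in the principal components, and results that depend on them are given with and without them. The labelled tissue was borne out by its markers: the mean log2 value of 8 proximal tubule markers was 12.14 to 12.31 in GR-deficient AKI and 10.84 to 11.24 in control AKI, and 12.19 to 12.62 in GR-deficient healthy and 12.68 to 12.72 in control healthy. In bulk cortex, fewer cells of a type and less RNA per cell cannot be told apart.

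RefSeq promoter windows (GRCm38.p6, 250 bases before to 50 bases after an annotated start) were found for 6 of the 9 genes, in 8 windows. The window of Rarb, at chr14:16575427-16575726 on the minus strand, is shown for the retinoic acid response element type of repeat it holds, GTTCA repeated in the same direction after 6 other bases (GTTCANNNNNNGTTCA, searched on both strands). The repeat, in capitals, lies at -52 to -37 relative to the start. It was found in 1 of the 8 windows, and in 25 of 32851 RefSeq windows of this length (0.0761%). The pattern is that of the beta retinoic acid response element, which is named for Rarb itself. The match in the Rarb window was therefore fixed in advance and is no independent result.
Rarb: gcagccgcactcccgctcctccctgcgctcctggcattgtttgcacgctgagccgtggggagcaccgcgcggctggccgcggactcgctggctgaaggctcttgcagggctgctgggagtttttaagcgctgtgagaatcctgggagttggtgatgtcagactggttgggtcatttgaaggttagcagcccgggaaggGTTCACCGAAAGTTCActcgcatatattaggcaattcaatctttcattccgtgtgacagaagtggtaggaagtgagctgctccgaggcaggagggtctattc
The windows of Aldh1a1 (chr19:20601718-20602017, plus strand) and Aldh1a7 (chr19:20727507-20727806, minus strand) are shown because each was the other's closest gene by profile over the arrays, as described further on. Aldh1a1 has a second annotated start, not shown, and the start shown was picked because its window was more similar to that of Aldh1a7. No other protein-coding gene lies between Aldh1a1 and Aldh1a7 in the RefSeq annotation. In a global alignment of the windows shown, 221 of the 300 bases were identical (73.7%). The window of the second Aldh1a1 start gave 57% against Aldh1a7. The remaining pairs among the windows of Aldh1a1, Aldh1a2, Aldh1a7 and Rdh16f2 gave 43.7% to 53.7%. The capitals mark a run of 65 bases, from -94 to -30 relative to each start, that both windows share exactly.
Aldh1a1: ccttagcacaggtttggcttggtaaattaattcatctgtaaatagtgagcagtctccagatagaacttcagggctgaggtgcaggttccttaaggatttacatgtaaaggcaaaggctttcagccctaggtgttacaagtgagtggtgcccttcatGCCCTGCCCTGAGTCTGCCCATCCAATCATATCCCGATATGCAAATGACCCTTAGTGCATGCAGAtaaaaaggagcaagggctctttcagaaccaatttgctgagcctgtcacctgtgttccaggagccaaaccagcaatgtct
Aldh1a7: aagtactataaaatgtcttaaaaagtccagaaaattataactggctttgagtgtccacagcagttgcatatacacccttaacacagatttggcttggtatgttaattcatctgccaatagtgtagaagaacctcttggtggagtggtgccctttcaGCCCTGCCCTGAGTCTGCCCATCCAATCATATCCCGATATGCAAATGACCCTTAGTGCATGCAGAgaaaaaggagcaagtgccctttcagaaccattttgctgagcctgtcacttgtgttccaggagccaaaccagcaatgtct
The window of Rdh16f2 (chr10:127866226-127866525, plus strand) is shown because this was the one gene of the 9 whose genotype difference passed in both conditions.
Rdh16f2: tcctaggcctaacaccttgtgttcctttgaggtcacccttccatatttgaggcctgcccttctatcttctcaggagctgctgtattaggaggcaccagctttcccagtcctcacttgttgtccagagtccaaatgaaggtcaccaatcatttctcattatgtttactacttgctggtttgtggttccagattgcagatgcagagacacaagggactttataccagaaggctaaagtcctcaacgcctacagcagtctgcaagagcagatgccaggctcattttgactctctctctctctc
A full palindrome of the glucocorticoid response element (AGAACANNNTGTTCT) and a direct repeat of AGGTCA after 5 other bases (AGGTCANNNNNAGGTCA), searched on both strands, were each found in 0 of the 8 windows, and each in 3 of all 32851 windows (0.00913%). A match, or none, describes only these letters in these windows.

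**Figure D1:**
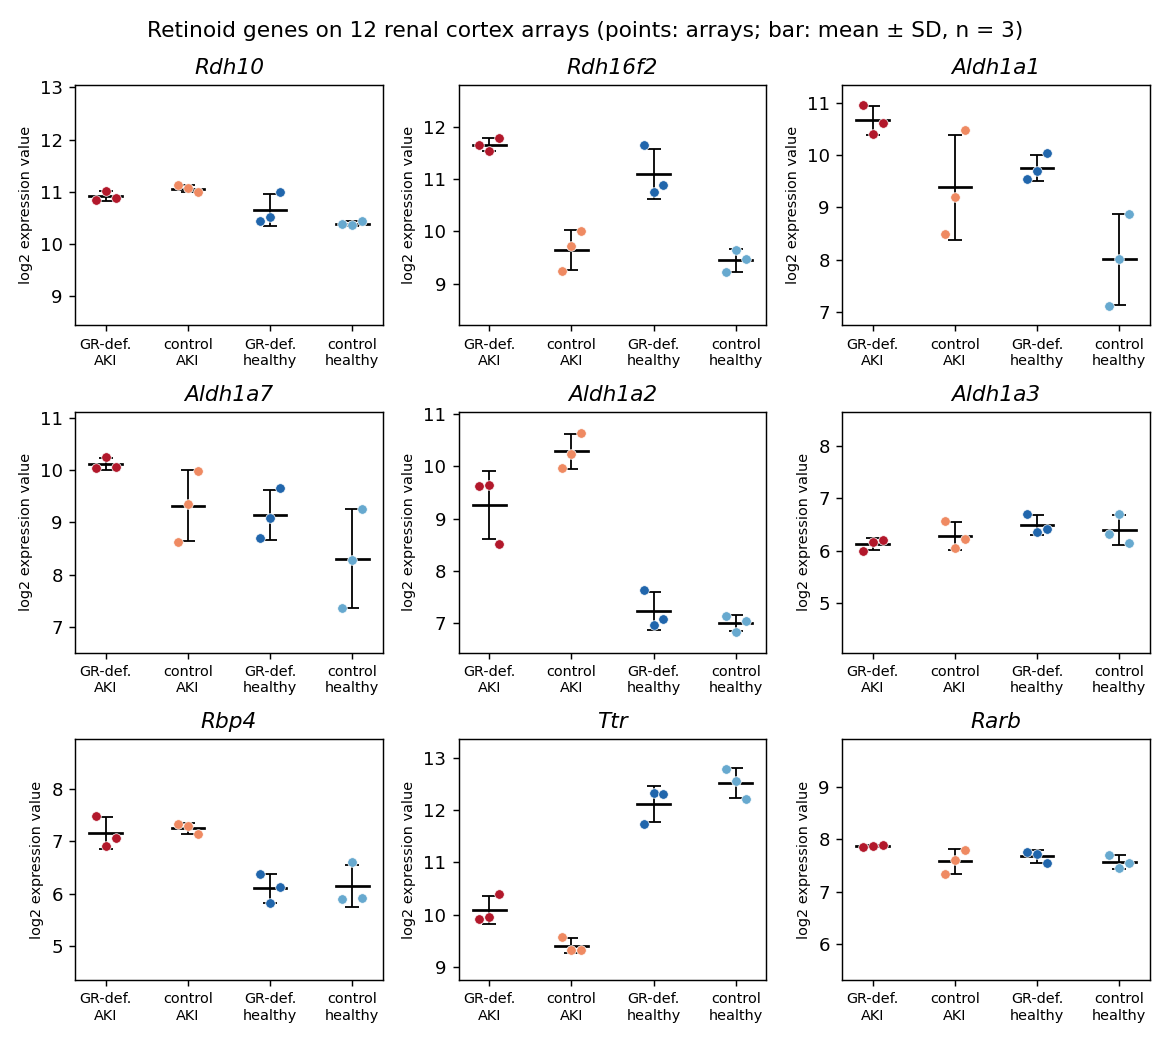
Log2 expression value of each of the 9 retinoid genes on every array (points) with the group mean and SD (bars), 3 arrays per group, in the order GR-deficient AKI, control AKI, GR-deficient healthy and control healthy. Rdh16f2 separates the genotypes, Ttr, Rbp4 and Aldh1a2 separate AKI from healthy, and Aldh1a3, Rarb and Rdh10 stay within 1 log2 unit over all arrays.

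Rdh16f2, a short-chain dehydrogenase of the retinol dehydrogenase 16 family, was higher in GR-deficient cortex whether or not the kidney was injured. Its log2 values were 11.65, 11.53 and 11.78 in GR-deficient AKI, against 9.24, 9.71 and 10.0 in control AKI. In uninjured cortex they were 11.65, 10.76 and 10.89 in GR-deficient mice, against 9.22, 9.65 and 9.47 in control mice. Every GR-deficient array lay above every control array, in both conditions. The difference was 2.00 ± 0.22 in AKI (SE, 4.01-fold, adjusted p = 2.59e-05) and 1.65 ± 0.22 in health (3.15-fold, adjusted p = 0.00631). The healthy difference had a 95% interval of 1.18 to 2.13 and was the 4th highest of 19938 genes. It passed in all 12 fits that left out 1 array, with values between 1.38 and 1.83 and adjusted p between 0.00188 and 0.0493. The AKI genotype difference ranked 46th. The 2 genotype differences differed from each other by 0.35 ± 0.311 (adjusted p = 0.558). AKI itself gave 0.55 ± 0.22 in GR-deficient mice (adjusted p = 0.192) and 0.20 ± 0.22 in control mice (adjusted p = 0.61). The first of these passed without GR-deficient healthy replicate 1, the highest of its group (0.83, adjusted p = 0.0356). The 8 proximal tubule markers had a median genotype difference of 1.26 in AKI and -0.163 in health, and their part in the Rdh16f2 values was not tested. Without both arrays that stood apart, AKI passed in GR-deficient mice (0.83, adjusted p = 0.00438) and in control mice (0.41, adjusted p = 0.0343).

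Rdh16f2 lies on chromosome 10 among related dehydrogenase genes. Rdh7 and Rdh19 are its direct protein-coding neighbours in the RefSeq annotation, with 1 gene between it and Rdh16, 2 between it and Rdh9, and 3 between it and Rdh1. These 5 genes were looked up for their position. In AKI the genotype difference was 1.39 ± 0.159 for Rdh16 (adjusted p = 3.61e-05), and 0.39 for Rdh9, 0.27 for Rdh1, 0.25 for Rdh7 and 0.16 for Rdh19, none of which passed. In health none of the 5 passed, and Rdh16 differed by 0.41 ± 0.159 (adjusted p = 0.384). In AKI, Rdh16 differed by 0.00 ± 0.159 in GR-deficient mice (adjusted p = 0.996) and fell by 0.98 in control mice (adjusted p = 0.00024). Whether probes of one family member also bind RNA of another was not tested.

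Rdh10, the retinol dehydrogenase that feeds retinoic acid synthesis in the mouse embryo, was higher in AKI than in health in control mice. Its log2 values in GR-deficient mice were 10.85, 11.02 and 10.88 in AKI, against 10.44, 10.51 and 11.00 in health. In control mice they were 11.13, 11.07 and 10.99 in AKI, against 10.38, 10.36 and 10.44 in health. The AKI and healthy arrays overlapped in GR-deficient mice through healthy replicate 3 and were apart in control mice. The AKI difference was 0.27 ± 0.132 in GR-deficient mice (adjusted p = 0.30) and 0.67 ± 0.132 in control mice (adjusted p = 0.00119). Without GR-deficient healthy replicate 3 the first difference also passed (0.45, adjusted p = 0.0316). The AKI differences of the 2 genotypes differed by -0.40 ± 0.187 (adjusted p = 0.21), and by -0.62 after quantile normalization, where this passed (adjusted p = 0.0249). No genotype difference of Rdh10 passed, with -0.14 ± 0.132 in AKI and 0.26 ± 0.132 in health.

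Aldh1a1 encodes a retinaldehyde dehydrogenase, and Aldh1a7 is its rodent paralog. Log2 values of Aldh1a1 were 10.96, 10.40 and 10.62 in GR-deficient AKI, against 8.49, 9.20 and 10.47 in control AKI. In health they were 9.54, 9.69 and 10.03 in GR-deficient mice, against 7.12, 8.02 and 8.87 in control mice. Control arrays spread widely (SD 1.00 in AKI and 0.878 in health), GR-deficient arrays less so (SD 0.283 in AKI and 0.253 in health). The genotypes did not overlap in health and overlapped in AKI through control replicate 3.

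In AKI the genotype difference of Aldh1a1 was 1.27 ± 0.432 and missed the threshold (adjusted p = 0.0568). It passed without control AKI replicate 3 (1.82, adjusted p = 0.00351), without control healthy replicate 1 (adjusted p = 0.0333) and without control healthy replicate 3 (adjusted p = 0.0359). In health the difference was 1.75 ± 0.432, with a 95% interval of 0.82 to 2.67. It was the 2nd highest of 19938 genes by size and did not pass (adjusted p = 0.161). Weighting the arrays by quality brought it past the threshold (1.67, adjusted p = 0.0348).

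Aldh1a1 rose in AKI by 1.38 ± 0.432 in control mice (adjusted p = 0.0256), although the arrays overlapped between AKI and health. This call passed in 9 of 12 fits that left out 1 array. It was lost without control AKI replicate 3 (0.84, adjusted p = 0.121), without control healthy replicate 1 (0.94, adjusted p = 0.139) and without control healthy replicate 2 (1.39, adjusted p = 0.0597), and with an intensity trend and a robust prior (adjusted p = 0.0867). In GR-deficient mice the AKI difference was 0.90 ± 0.432 and did not pass (adjusted p = 0.285), and the 2 AKI differences differed by -0.47 ± 0.611 (adjusted p = 0.707).

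Aldh1a7 had a profile close to that of Aldh1a1. Its log2 values were 10.05, 10.25 and 10.06 in GR-deficient AKI, against 8.62, 9.35 and 9.98 in control AKI. In health they were 8.70, 9.08 and 9.65 in GR-deficient mice, against 7.37, 8.28 and 9.26 in control mice. In control AKI and in both healthy groups, the array that was lowest for Aldh1a1 was also lowest for Aldh1a7, and likewise for the highest. In these groups the values of both genes also rose in the order of the replicate numbers, which they did not in GR-deficient AKI. The labels do not say what the numbers stand for, and their part in this likeness was not tested. None of its differences passed: the genotype difference was 0.80 ± 0.395 in AKI (adjusted p = 0.205) and 0.83 ± 0.395 in health (adjusted p = 0.474), and the AKI difference was 0.98 ± 0.395 in GR-deficient mice (adjusted p = 0.199) and 1.01 ± 0.395 in control mice (adjusted p = 0.0723). The last of these passed without control AKI replicate 1 (1.36, adjusted p = 0.0192) and without control healthy replicate 3 (1.49, adjusted p = 0.00648). Whether probes of either gene also bind RNA of the other was not tested. Aldh1a1 is also known from adrenal cortex, whose 7 marker genes averaged 5.53 to 5.65 in GR-deficient AKI and 5.53 to 6.01 in control AKI, and 5.57 to 5.63 in GR-deficient healthy and 5.52 to 5.65 in control healthy. Cyp11b1, which defines that tissue, had group means of 5.04 to 5.45. The part of such cells was not tested.

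Aldh1a2, the main retinoic acid forming enzyme of the mouse embryo, rose in AKI in both genotypes. Its log2 values in GR-deficient mice were 9.63, 9.65 and 8.52 in AKI, against 7.64, 6.96 and 7.09 in health. In control mice they were 9.98, 10.24 and 10.64 in AKI, against 7.14, 6.84 and 7.04 in health. Every AKI array lay above every healthy one, and every GR-deficient AKI array lay below every control AKI array. The AKI difference was 2.04 ± 0.266 in GR-deficient mice (4.11-fold, adjusted p = 0.000755) and 3.28 ± 0.266 in control mice (9.7-fold, adjusted p = 4.05e-07). These ranked 8th and 22nd of 19938 genes.

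Within AKI, Aldh1a2 was lower in GR-deficient than in control mice by -1.02 ± 0.266 (adjusted p = 0.0151), while in health the genotypes differed by 0.22 ± 0.266 (adjusted p = 0.839). The AKI genotype call was lost without GR-deficient AKI replicate 3 (-0.64, adjusted p = 0.0604) and without control AKI replicate 3 (-0.84, adjusted p = 0.0571). The AKI difference was smaller in GR-deficient mice by -1.24 ± 0.376 (adjusted p = 0.0469). That test of the difference passed in 4 of 12 fits that left out 1 array, with values between -1.43 and -0.86 and adjusted p between 0.033 and 0.124. It was also lost without both arrays that stood apart (-1.18, adjusted p = 0.0671).

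Markers of cells that can hold Aldh1a2 stood beside these values as follows. The 7 fibroblast and mural cell markers averaged 8.87 to 8.90 in GR-deficient AKI and 8.82 to 9.05 in control AKI, and 8.52 to 8.71 in GR-deficient healthy and 8.48 to 8.68 in control healthy. Of these, 2 rose in AKI in GR-deficient mice, and 4 rose and 1 fell in control mice. The 6 mesothelial markers averaged 6.75 to 7.02 in GR-deficient AKI and 6.56 to 6.79 in control AKI, and 6.78 to 7.03 in GR-deficient healthy and 6.43 to 6.90 in control healthy. The 7 neutrophil markers averaged 5.29 to 5.62 in GR-deficient AKI and 6.28 to 6.60 in control AKI, and 5.12 to 5.30 in GR-deficient healthy and 4.97 to 5.31 in control healthy, with 6 of 7 lower in GR-deficient AKI than in control AKI. The 6 macrophage markers averaged 7.27 to 7.77 in GR-deficient AKI and 7.99 to 8.30 in control AKI, and 7.17 to 7.29 in GR-deficient healthy and 7.05 to 7.27 in control healthy. Of these, 2 rose in AKI in GR-deficient mice (median difference -0.0529), 2 rose and 1 fell in AKI in control mice (median 0.0628), and 1 was higher and 2 lower in GR-deficient than in control AKI (median -0.207). Group means spanned 7.17 to 10.15 for Cd68 and 6.53 to 10.45 for Cd14, and less than 1 log2 unit for each of the other 4. Beside these counts, 3.29% of all genes rose in AKI in GR-deficient mice, and 13.6% rose and 15.1% fell in control mice. Between genotypes in AKI, 10.0% of all genes were higher and 7.34% lower in GR-deficient mice. The part of these cells in the Aldh1a2 values was not tested.

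Aldh1a3, the third retinoic acid forming enzyme of this family, varied little. Its log2 values lay between 5.99 and 6.71 over all 12 arrays. They were 5.99, 6.17 and 6.21 in GR-deficient AKI, 6.56, 6.05 and 6.23 in control AKI, 6.70, 6.35 and 6.42 in GR-deficient healthy and 6.32, 6.71 and 6.15 in control healthy. Only the AKI and healthy arrays of GR-deficient mice did not overlap, and that difference did not pass (-0.37, adjusted p = 0.234).

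Rbp4, the plasma carrier of retinol, rose in AKI in both genotypes. Its log2 values in GR-deficient mice were 7.49, 6.90 and 7.06 in AKI, against 6.37, 5.81 and 6.12 in health. In control mice they were 7.33, 7.29 and 7.13 in AKI, against 5.90, 6.61 and 5.92 in health. AKI and healthy arrays were apart in both genotypes. The AKI difference was 1.05 ± 0.198 in GR-deficient mice (2.07-fold, adjusted p = 0.00778) and 1.11 ± 0.198 in control mice (2.15-fold, adjusted p = 0.000548). They differed by -0.06 ± 0.28, with a 95% interval of -0.66 to 0.54. Without GR-deficient AKI replicate 1 the first call was lost (0.88, adjusted p = 0.0585).

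Rbp4 is also made in liver and fat. The 7 hepatocyte markers averaged 6.78 to 6.97 in GR-deficient AKI and 6.88 to 7.00 in control AKI, and 6.85 to 7.12 in GR-deficient healthy and 6.75 to 6.90 in control healthy. The 5 measured of 6 adipocyte markers averaged 6.25 to 6.92 in GR-deficient AKI and 6.60 to 6.77 in control AKI, and 6.26 to 6.47 in GR-deficient healthy and 6.11 to 6.98 in control healthy. Group means were 4.76 to 5.22 for Adipoq, 5.05 to 5.40 for Lep, 6.13 to 6.37 for Plin1, 6.64 to 7.71 for Cidec and 8.70 to 9.37 for Fabp4. Of the 5, 1 rose in AKI in control mice, where 13.6% of all genes did. The part of such cells in the Rbp4 values was not tested.

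Ttr, which carries the retinol carrier and thyroid hormone in plasma, fell in AKI in both genotypes, and fell less in GR-deficient mice. Its log2 values in GR-deficient mice were 9.92, 9.95 and 10.40 in AKI, against 11.73, 12.32 and 12.31 in health. In control mice they were 9.57, 9.33 and 9.33 in AKI, against 12.78, 12.55 and 12.22 in health. AKI and healthy arrays were apart by more than 1 log2 unit in each genotype. The AKI difference was -2.03 ± 0.183 in GR-deficient mice (adjusted p = 6e-05) and -3.10 ± 0.183 in control mice (adjusted p = 3.51e-08). These were the 3rd and the 13th lowest of 19938 genes, 4.08-fold and 8.59-fold lower than in health.

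The AKI difference of Ttr was less negative in GR-deficient mice by 1.07 ± 0.259 (adjusted p = 0.0141), which passed in all 12 fits that left out 1 array, with values between 0.88 and 1.22. Within AKI, Ttr was higher in GR-deficient than in control mice by 0.68 ± 0.183 (adjusted p = 0.0183), a call that was lost without GR-deficient AKI replicate 3 (0.53, adjusted p = 0.0975) and without control AKI replicate 2 (0.64, adjusted p = 0.066). In health the genotypes differed by -0.40 ± 0.183 and did not pass (adjusted p = 0.464). Of the 8 proximal tubule markers, 2 fell in AKI in GR-deficient mice (median difference -0.135), where 1.35% of all genes did. In control mice 8 fell in AKI (median -1.62), where 15.1% of all genes did. In GR-deficient AKI 8 were higher than in control AKI (median 1.26), where 10.0% of all genes were. The part of these markers in the Ttr values was not tested.

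Rarb, the receptor gene whose repeat is printed above, showed no call. Its log2 values were 7.85, 7.87 and 7.90 in GR-deficient AKI, against 7.33, 7.61 and 7.80 in control AKI. In health they were 7.76, 7.73 and 7.54 in GR-deficient mice, against 7.71, 7.45 and 7.54 in control mice. The GR-deficient AKI arrays lay above all others by a small margin. The genotype difference in AKI was 0.29 ± 0.124 (adjusted p = 0.136), and without control AKI replicate 3 it passed at 0.40 (adjusted p = 0.0394). In health it was 0.11 ± 0.124, with a 95% interval of -0.16 to 0.37. The AKI difference was 0.20 ± 0.124 in GR-deficient mice (adjusted p = 0.434) and 0.02 ± 0.124 in control mice (adjusted p = 0.955).

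**Figure D2:**
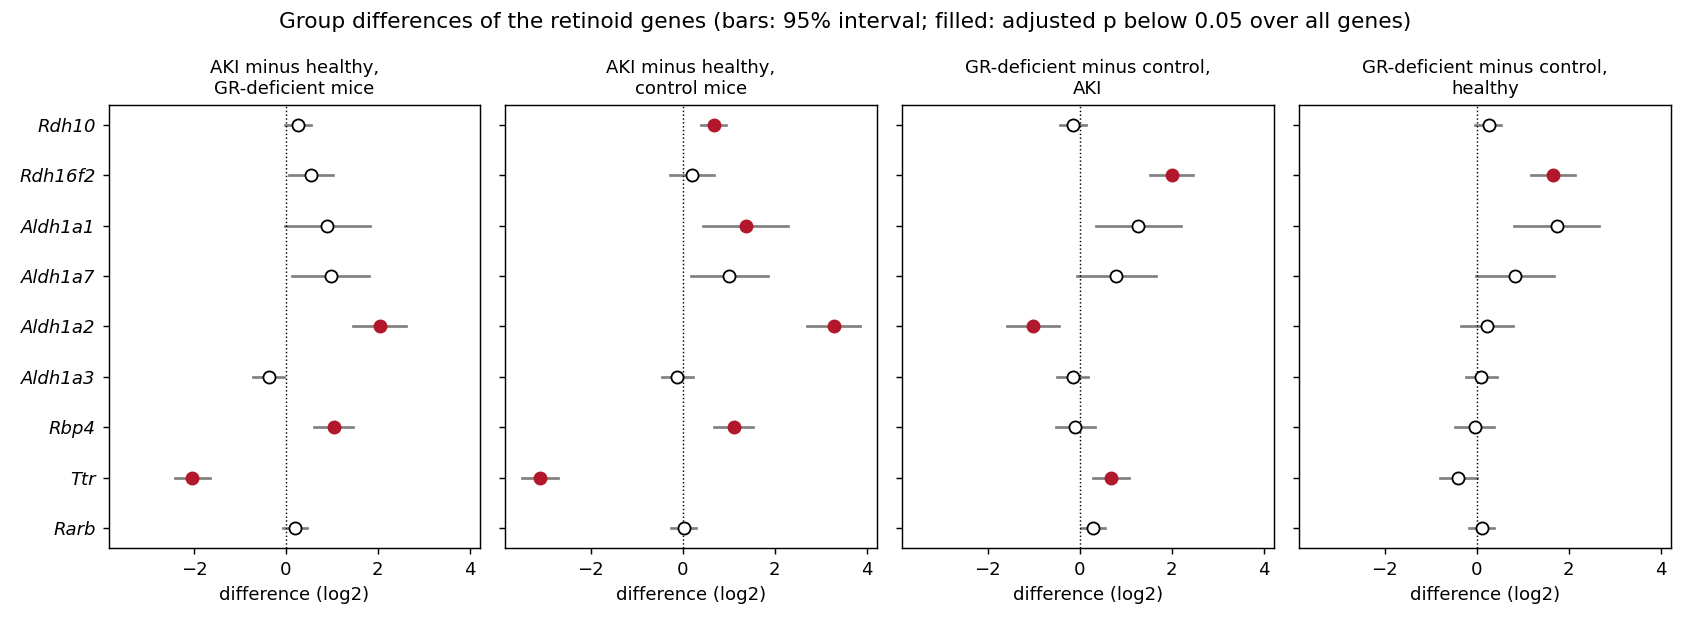
Log2 difference of each of the 9 genes with its 95% interval in the AKI comparisons of both genotypes and the genotype comparisons in AKI and in health. Filled points passed the adjusted p threshold of 0.05, among them Rdh16f2 in both genotype comparisons and Aldh1a2, Rbp4 and Ttr in both AKI comparisons.

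Counted over the 9 genes, the AKI response of GR-deficient mice held 2 that rose (Aldh1a2 and Rbp4) and 1 that fell (Ttr), where 3.29% of all genes rose and 1.35% fell. Of all called genes in that comparison 70.8% were higher, against 60.2% after quantile normalization. In control mice 4 rose in AKI (Aldh1a1, Aldh1a2, Rbp4 and Rdh10) and 1 fell (Ttr), where 13.6% of all genes rose and 15.1% fell. Between genotypes in AKI, 2 were higher in GR-deficient mice (Rdh16f2 and Ttr) and 1 was lower (Aldh1a2), where 10.0% of all genes were higher and 7.34% lower. The AKI comparison in control mice and the genotype comparison in AKI share the control AKI arrays. Between genotypes in health 1 was higher (Rdh16f2) and 0 lower in the limma fit, where 0.0351% of all genes were higher (7 genes) and 0.110% lower (22 genes). At an unadjusted p under 0.05, 2 of the 9 were higher and 1 lower there, where 805 and 1319 of all 19938 genes were. In the difference between the AKI responses 1 was higher (Ttr) and 1 lower (Aldh1a2), where 7.39% of all genes were higher and 4.06% lower. Of the called genes 64.5% were higher there, against 53.0% after quantile normalization. Without both arrays that stood apart, 4 of the 9 genes passed in AKI in GR-deficient mice and 7 in AKI in control mice. Over all 19938 genes, 1291 and 6974 did. Between genotypes 3 passed in AKI and 1 in health, where 3934 and 26 of all genes did. In the difference between the AKI responses 1 passed, where 2351 of all genes did. Since the 9 genes were chosen with these results known, the counts are a description.

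**Figure D3:**
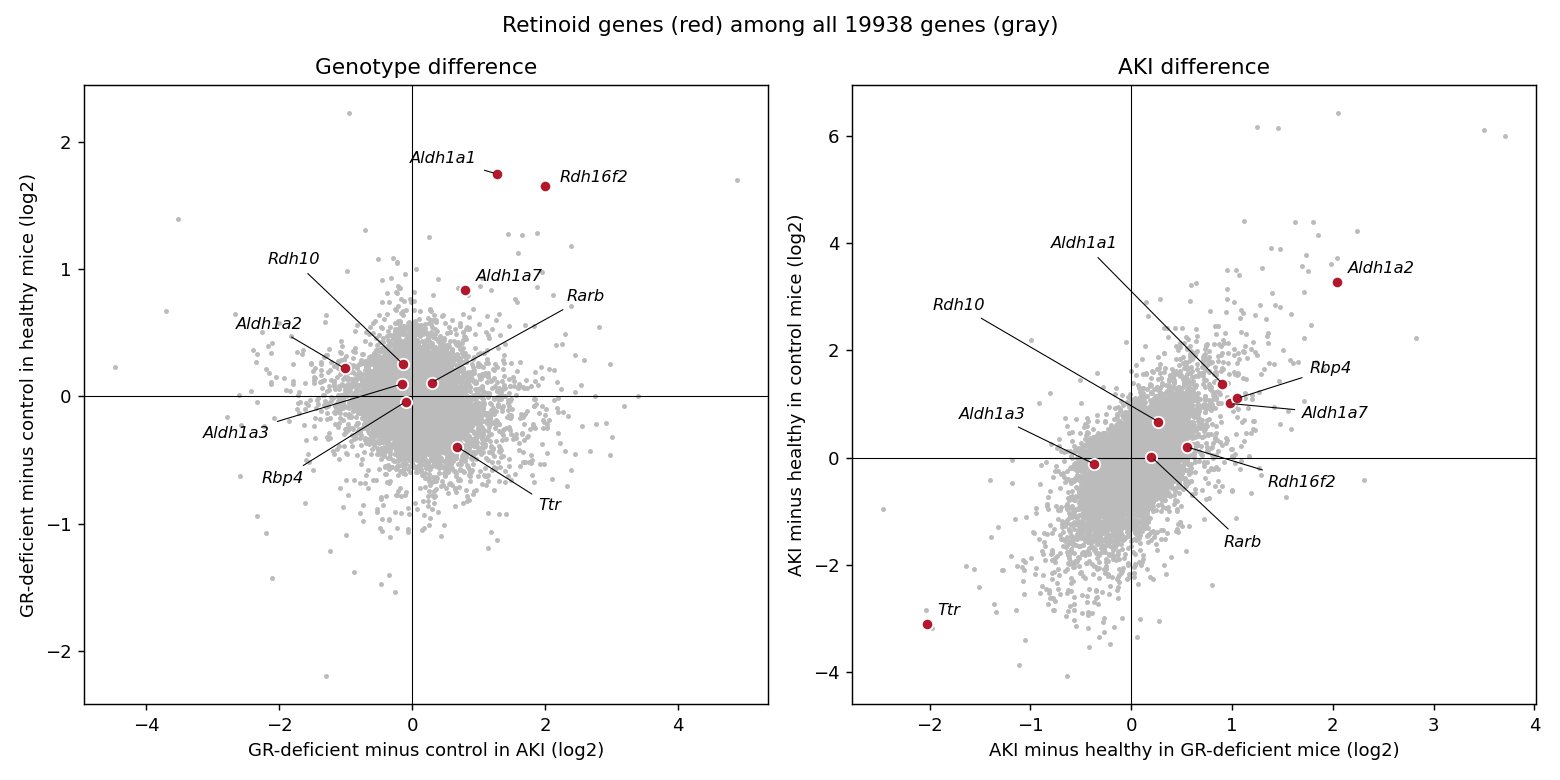
Log2 differences of all 19938 genes (gray) with the 9 retinoid genes named (red), the genotype difference in AKI against that in health on the left and the AKI difference in GR-deficient against that in control mice on the right. The axes of a panel share no arrays. Rdh16f2 lies at 2.00 and 1.65 and Aldh1a1 at 1.27 and 1.75 on the left, and Ttr at -2.03 and -3.10 on the right.

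For the 6 of the 9 genes whose group means spanned at least 1 log2 unit, the genes with the most similar profile over the 12 arrays were looked up. Predicted genes, clone names, microRNA, snoRNA and immunoglobulin or T cell receptor gene names were skipped, so closest means closest among the remaining genes. Likeness was the root mean square difference between profiles, each centred on its own mean, so that a smaller value is closer. For Rdh16f2, whose own values spread by a root mean square of 0.976, the closest were Rarres2, which encodes the chemoattractant chemerin (0.292), the chloride channel family member Clic6 (0.4) and the monoacylglycerol acyltransferase Mogat2 (0.465). Rarres2 differed between genotypes by 1.95 ± 0.214 in AKI (adjusted p = 2.46e-05) and by 0.98 ± 0.214 in health (adjusted p = 0.104). Aldh1a1 and Aldh1a7 were each other's closest gene (0.441), with own spreads of 1.11 and 0.825. Next came the carboxylesterase Ces2e (0.66) and Trim12a (0.663) for Aldh1a1, and Trim12a (0.468) and the glutathione transferase Gsta3 (0.513) for Aldh1a7.

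For Aldh1a2, with an own spread of 1.42, the closest genes were Timp1, an inhibitor of matrix metalloproteinases (0.294), Tnfrsf12a, a receptor of the tumor necrosis factor family (0.348), and the metallothionein Mt2 (0.377). Timp1 rose in AKI by 2.04 ± 0.304 in GR-deficient mice (adjusted p = 0.00185) and by 3.73 ± 0.304 in control mice (adjusted p = 4.25e-07). For Rbp4, with an own spread of 0.591, they were the mucin Muc1 (0.235), Alas1, the first enzyme of heme synthesis (0.25), and Ttll12 (0.251). For Ttr, with an own spread of 1.33, they were the cytochrome P450 gene Cyp2d12 (0.387), the carnosine dipeptidase Cndp1 (0.391) and the immunoglobulin receptor Fcamr (0.447). Cyp2d12 differed in AKI by -1.14 ± 0.136 in GR-deficient mice and by -2.84 ± 0.136 in control mice, with adjusted p of 0.000385 and 1.15e-08.

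The other genes of retinoid handling were taken from a list of 48, of which 46 were measured. In AKI, 4 rose and 1 fell in GR-deficient mice (3.29% and 1.35% of all genes), and 8 rose and 11 fell in control mice (13.6% and 15.1% of all genes). Between genotypes, 10 were higher and 1 lower in GR-deficient AKI (10.0% and 7.34% of all genes), and 0 passed in health by limma. At an unadjusted p under 0.05, 4 were higher and 1 lower in health, where 805 and 1319 of all 19938 genes were. With adjustment, 1 passed there without GR-deficient healthy replicate 3 and 2 passed with array weights, where 115 and 301 of all genes did. In the difference between the AKI responses 7 were higher and 2 lower (7.39% and 4.06% of all genes). Their median difference in AKI was -0.00395 in GR-deficient and -0.06 in control mice, beside -0.0255 and 0.00126 over all genes. The median genotype difference was 0.161 in AKI and 0.00875 in health, beside -0.0434 and -0.00879 over all genes.

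Among 19 other retinol dehydrogenases and retinal reductases, 1 rose and 1 fell in AKI in GR-deficient mice, where 3.29% and 1.35% of all genes did. In AKI in control mice 4 rose and 6 fell, where 13.6% and 15.1% of all genes did, and 5 were higher in GR-deficient than in control AKI, where 10.0% of all genes were. Dhrs3, a retinal reductase induced by retinoic acid, had log2 values of 11.28, 11.28 and 11.60 in GR-deficient AKI, against 9.77, 9.92 and 10.05 in control AKI. In health its values were 11.14, 11.28 and 11.40 in GR-deficient mice, against 11.23, 11.16 and 11.18 in control mice. The 3 control AKI arrays were thus the low ones, and the other 9 arrays lay between 11.14 and 11.60. It fell by 1.28 in AKI in control mice (adjusted p = 1.3e-06) and was higher in GR-deficient than in control AKI by 1.47 ± 0.118 (adjusted p = 2.17e-06). Dhrs4, another retinal reductase, fell by 1.16 in AKI in control mice and was higher by 0.74 in GR-deficient AKI. Rdh11, a retinal reductase, rose in AKI by 0.63 ± 0.106 in GR-deficient mice (adjusted p = 0.00397) and by 1.13 ± 0.106 in control mice (adjusted p = 1.48e-06).

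Aldh8a1, an aldehyde dehydrogenase that accepts 9-cis-retinal, had a mean log2 value of 11.67 in GR-deficient AKI and 10.68 in control AKI, and 11.5 in GR-deficient healthy and 12.13 in control healthy. It fell by 1.45 in AKI in control mice and was higher by 0.99 ± 0.18 in GR-deficient than in control AKI (adjusted p = 0.00139). Of the 5 genes of storage and carotenoid cleavage, 1 rose and 1 fell in AKI in control mice, where 13.6% and 15.1% of all genes did. In GR-deficient mice 1 rose in AKI, where 3.29% of all genes did. In GR-deficient AKI 1 was higher than in control AKI, where 10.0% of all genes were. Bco1, which cleaves beta-carotene to retinal, rose in AKI in both genotypes, by 1.08 ± 0.161 in GR-deficient mice (adjusted p = 0.00185) and by 1.13 ± 0.161 in control mice (adjusted p = 7.63e-05). Bco2, which cleaves carotenoids off centre, fell by 1.97 in AKI in control mice (adjusted p = 2.96e-07) and was higher by 1.30 ± 0.154 in GR-deficient than in control AKI (adjusted p = 4.73e-05).

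Among the 9 measured genes of uptake and binding, Stra6l, a membrane receptor of the retinol carrier, had log2 values of 8.90, 8.78 and 8.51 in GR-deficient AKI, against 9.25, 9.42 and 9.57 in control AKI. In health its values were 7.28, 7.42 and 7.81 in GR-deficient mice, against 7.59, 7.54 and 7.21 in control mice. It was high in all 6 AKI arrays, and lower in GR-deficient than in control AKI without overlap. It rose in AKI by 1.23 ± 0.156 in GR-deficient mice (adjusted p = 0.000612) and by 1.97 ± 0.156 in control mice (adjusted p = 3.34e-07). The genotype difference in AKI was -0.68 ± 0.156 (adjusted p = 0.00673).

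The endocytic receptors ran the other way. Lrp2 averaged 12.99 in GR-deficient AKI and 11.76 in control AKI, a difference of 1.23 ± 0.125 (adjusted p = 1.4e-05). Cubn averaged 12.09 in GR-deficient AKI and 10.78 in control AKI, a difference of 1.31 ± 0.164 (adjusted p = 7.34e-05). Both fell in AKI in control mice, Lrp2 by 1.39 and Cubn by 1.53, and neither passed in GR-deficient mice, with -0.02 ± 0.125 and 0.04 ± 0.164. Lrp2 and Cubn also stand on the proximal tubule marker list given above. All 8 genes of that list fell in AKI in control mice, where 15.1% of all genes did.

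Of the 3 Cyp26 genes of retinoic acid breakdown, 0 passed in any comparison in the limma fit. Over all genes, 0.0351% to 15.1% passed per comparison and direction, and 0 of 3 does not set these genes apart. At an unadjusted p under 0.05, 1 was higher in the healthy genotype comparison (Cyp26a1), where 805 of all 19938 genes were. For Cyp26a1 the genotype difference was 0.22 ± 0.125 in AKI and 0.27 ± 0.125 in health. For Cyp26c1 it was -0.03 ± 0.138 in AKI and -0.14 ± 0.138 in health. Of the 5 other receptor genes, Rara was higher in GR-deficient than in control AKI by 0.35 ± 0.114 (adjusted p = 0.0455), where 10.0% of all genes were higher. Rxra differed by -0.32 ± 0.117 in AKI in control mice and did not pass (adjusted p = 0.0539). Of the 4 measured genes on the list of retinoic acid responsive genes, Tgm2, a transglutaminase, rose in AKI in both genotypes. The difference was 0.62 ± 0.161 in GR-deficient mice (adjusted p = 0.0406) and 0.62 ± 0.161 in control mice (adjusted p = 0.0085), where 3.29% and 13.6% of all genes rose. The other 3 on that list did not pass, and Rarres1 had a healthy genotype difference of 0.44 ± 0.115 (adjusted p = 0.18). The list does not hold every gene that responds to retinoic acid. Dhrs3 and Rarb, given above, also respond to it and are examples outside the list, and of these Dhrs3 passed and Rarb did not. They are not a full set of such genes, so no share can be read from them.

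**Figure D4:**
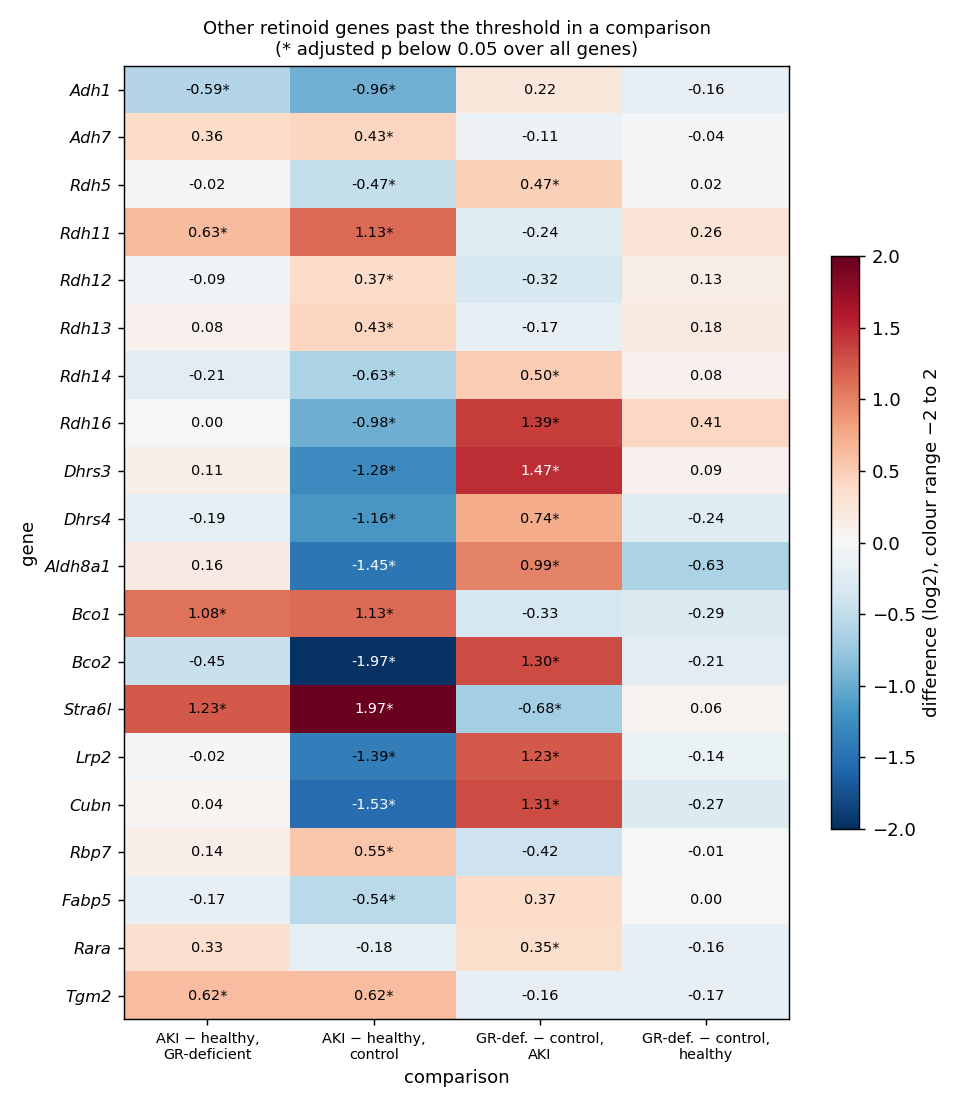
Log2 differences of the 20 other retinoid genes that passed in at least 1 of 4 group comparisons, with a star where the adjusted p was below 0.05. Dhrs3, Aldh8a1, Bco2, Lrp2 and Cubn have a star in AKI in control mice (lower) and between genotypes in AKI (higher), 2 comparisons that share the control AKI arrays, and the column of the healthy genotype comparison holds no star.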

How the data were processed

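Renal cortex RNA of 12 samples was measured on Affymetrix arrays, 3 in each of 4 groups taken from the sample titles. The log2 values that the authors deposited came from RMA, run with the R packages oligo and affy according to the processing notes of the submitters. No tool version stands in these notes, and the log base is read from the range of the values. RMA corrects background, normalizes and summarises probes together. Raw scans and detection calls were not used here.

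Of 35556 probe sets, 21789 had 1 symbol, 1621 several and 12146 none in the platform annotation, and for 21698 of those with 1 symbol RefSeq held the Entrez ID. The brightest probe set per gene by mean over all arrays was kept, which left 19938 genes with no filter.

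Group differences were fitted with limma 3.58.1 in R 4.3.3 on 4 group means (8 residual and 6.26 prior degrees of freedom), two-sided, with Benjamini-Hochberg adjustment over all genes in each of 5 contrasts. The fit was tested on simulated data. The members, lists and markers were chosen with earlier results of these data known. Named are all members, the other retinoid genes that passed with a difference of at least 1 or had the 2 smallest p in their role, the 3 closest genes per member, and Nr3c1. The rule was kept, with the neighbours of Rdh16f2 added by position. A comparison of the Aldh1a proteins was not run, since no protein table was used here. Over all genes, same-numbered samples did not deviate together (3 of 18 pairs had a correlation over 0.1, range -0.41 to 0.252), so numbers were not taken as pairs. Aldh1a1 and Aldh1a7 did follow the numbers in control AKI and both healthy groups. Alternatives were quantile and cyclic loess normalization, the mean of all probe sets, dim genes left out, array weights, an intensity trend with a robust prior, a minimum difference, a replicate block and leaving out arrays.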

Additional observations from a re-analysis of the deposited data

Results flagged for a closer look

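The results here are those in which the AKI difference of GR-deficient mice differed from that of control mice in the test of the difference itself, with limma and adjustment over all genes. Each value is the AKI difference in GR-deficient minus that in control mice on the log2 scale, and the 2 AKI differences share no arrays.

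Aldh1a2 differed by -1.24 ± 0.376 (SE, adjusted p = 0.0469), with an AKI difference of 2.04 in GR-deficient and 3.28 in control mice. Ttr differed by 1.07 ± 0.259 (adjusted p = 0.0141), with -2.03 in GR-deficient and -3.10 in control mice.

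Of the retinal reductases and dehydrogenases, Rdh11 differed by -0.50 ± 0.15 (adjusted p = 0.0448), with 0.63 in GR-deficient and 1.13 in control mice. Rdh16 differed by 0.98 ± 0.225 (adjusted p = 0.0109), with 0.00 in GR-deficient and -0.98 in control mice. Dhrs3 differed by 1.39 ± 0.167 (adjusted p = 0.000165), with 0.11 in GR-deficient and -1.28 in control mice. Dhrs4 differed by 0.97 ± 0.175 (adjusted p = 0.00234), with -0.19 in GR-deficient and -1.16 in control mice.

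Aldh8a1 differed by 1.61 ± 0.255 (adjusted p = 0.00103), with 0.16 in GR-deficient and -1.45 in control mice. Bco2 differed by 1.52 ± 0.218 (adjusted p = 0.000551), with -0.45 in GR-deficient and -1.97 in control mice. Stra6l differed by -0.74 ± 0.221 (adjusted p = 0.0439), with 1.23 in GR-deficient and 1.97 in control mice. Among the endocytic receptors, Lrp2 differed by 1.36 ± 0.177 (adjusted p = 0.000273), with -0.02 in GR-deficient and -1.39 in control mice. Cubn differed by 1.57 ± 0.232 (adjusted p = 0.000637), with 0.04 in GR-deficient and -1.53 in control mice. All 8 proximal tubule markers were also higher in this difference, with a median of 1.4, and 6 of 7 neutrophil markers were lower, with a median of -1.21. Over all genes, 7.39% were higher in it and 4.06% lower.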

How the results depend on the processing

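Over 900 refits of single differences of the 9 members, 858 kept their side of the threshold, 20 lost a call, 22 gained one and 0 turned a called sign. A sign turned in 23 refits with neither value past the threshold. With array quality weights the counts of the other retinoid genes became 8 (AKI, GR-deficient), 30 (AKI, control), 26 (genotype, AKI), 2 (genotype, health) and 17 (difference of AKI responses), and those of members 5 (genotype, AKI) and 2 (genotype, health). Over all genes the weights gave 3196, 9648, 7000, 301 and 4905 calls, against 926, 5715, 3460, 29 and 2283. With a difference of at least 1 also required, the other retinoid genes numbered 2, 9 and 5 in the first 3 comparisons and 5 in the difference of AKI responses, and all genes 135, 1306, 568, 13 and 804. With the replicate block, 5 members passed between genotypes in AKI and 1 in the difference of AKI responses, where 3104 and 2013 of all genes did. Under the block Aldh1a1 (adjusted p = 0.0191) and Aldh1a7 (adjusted p = 0.0464) passed between genotypes in AKI, and Aldh1a7 in the AKI response of control mice (adjusted p = 0.00802). Members in the difference of AKI responses numbered 1 with an intensity trend and robust prior, and 1 without both arrays that stood apart. Over all genes 2616 and 2351 passed there. Leaving out 1 array in turn gave 2 to 4 (AKI, GR-deficient), 4 to 6 (AKI, control), 1 to 4 (genotype, AKI), 1 to 1 (genotype, health) and 1 to 2 (difference) members, without GR-deficient AKI replicate 3 giving the 1 between genotypes in AKI, and 3 to 6, 16 to 20, 9 to 15, 0 to 1 and 7 to 10 other retinoid genes. Over all genes, leaving out 1 array gave 277 to 1448, 4651 to 6188, 2414 to 3906, 10 to 115 and 1556 to 2696 calls in the same order of comparisons. Between healthy genotypes, loess gave 61 calls over all genes, leaving out dim genes 53 and the trend 71. The cause of these shifts was not tested. Only 3 arrays per group limit the precision, and Aldh1a3 (mean 6.32) lay below the array medians, as did Rbp4 in health (means 6.10 in GR-deficient and 6.15 in control mice) but not in AKI (7.15 and 7.25).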
